A study of Homo sapiens with 12 samples.

Results

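The genes read here encode the subunits of the respiratory chain and of ATP synthase, in human microglia-like cells. They were chosen by symbol: rows of the count table named NDUFA, NDUFB, NDUFC, NDUFS or NDUFV with a number, SDHA to SDHD, UQCR, COX4 to COX8, ATP5, MT-ND, MT-CO, MT-CYB or MT-ATP, pseudogenes left out, with at least 20 counts summed over the 12 libraries. This gave 96 of the 57992 rows: 81 nuclear protein-coding genes, the 13 mitochondrially encoded genes, and 2 non-coding rows (NDUFA6-DT and NDUFV2-AS1) that were kept apart. Complexes were assigned by symbol alone, so NDUFA4 and NDUFA4L2 were counted with complex I because of their names. On that grouping complex I had 31 accessory and 7 nuclear core subunits, complex II 4, complex III 9, complex IV 12 and complex V 18.

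The chain carries electrons from NADH (complex I) and succinate (complex II) through coenzyme Q, complex III and cytochrome c to oxygen at complex IV, and complex V uses the proton gradient to make ATP. All subunits of complex II and most of the others are made from nuclear genes, whereas the mitochondrially encoded subunits form the membrane core of complexes I, III, IV and V and are transcribed within the organelle as long polycistronic RNAs. In macrophages and microglia, lipopolysaccharide (LPS), the bacterial Toll-like receptor ligand, is known for a shift of energy metabolism towards glycolysis.

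The cells were induced microglia-like cells differentiated from the H1 embryonic stem cell line. WT cells and cells with MEF2C knocked out (KO), both given vehicle, had 3 libraries each, and LPS-treated WT cells (WT LPS), LPS-treated KO cells (KO LPS) and KO cells given LPS with BMS265246, an inhibitor of the cell-cycle kinases CDK1 and CDK2 (KO LPS BMS), had 2 each. No WT cells with the compound and no cells with the compound alone are among the libraries. Dose, time and the number of knockout clones are not stated.

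Depth was 13888283 to 17639136 counts per library, so a count of 0 allows up to 3 counts, or 0.154 to 0.236 CPM (the usual per-library scaling of counts, on TMM-adjusted library sizes), for counting error only. MEF2C, the edited gene, stood at 177 to 192 CPM in WT and 129 to 136 CPM in KO, and at 43.7 to 51.5 CPM in every library with LPS. All 15 microglial markers had counts, with CSF1R at 1467 to 2117 CPM, but SALL1, a defining factor of brain microglia, had 8 counts in all. All 7 monocyte markers had counts, and their summed level was 1059 to 1148 CPM in WT, 1531 to 1651 in KO, 1788 to 1885 in WT LPS, 2292 to 2632 in KO LPS and 1185 to 1386 in KO LPS BMS. CD14 was the largest part in WT, at 798 to 879 CPM, and the markers did not all move together. With LPS in WT 4 rose and 2 fell, FCN1 going from 89.5 to 97.9 CPM to 42.0 to 44.9. In KO against WT 5 rose and 1 fell, and CCR2 was at 37.2 to 39.8 CPM in KO against 49.1 to 56.0 in WT. The 5 pluripotency markers summed to at most 0.617 CPM. The part of the monocyte markers in the results below was not tested, and in bulk RNA fewer cells of a type and less RNA per cell cannot be told apart. Library composition also differed by GC content. The median log2 level of genes over 55% GC minus that of genes under 45% GC, each against the mean of the 12 libraries, was 0.04 to 0.28 in the WT and KO libraries. It was -0.34 and -0.59 in the 2 WT LPS libraries, -0.18 and 0.15 in KO LPS replicates 1 and 2, and 0.12 and -0.07 with the compound. The counts of members called, and the named members where the value matters, are therefore also given after that trend was removed per library, an alternative chosen after seeing the data.

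Levels of the mitochondrially encoded genes were far above those of most nuclear members once divided by transcript length. In WT, MT-CO1, a catalytic core subunit of complex IV, stood at 2690.4 CPM per kb, and MT-CO2 and MT-CO3, the other mitochondrially encoded subunits of that complex, at 1589 and 1245 CPM per kb. The nuclear member with the most signal per length was ATP5F1B, the catalytic beta subunit of complex V, at 314 CPM per kb, followed by COX4I1 of complex IV at 283. At the low end, MT-ATP8 had only 175 counts in all libraries together. Its reading frame overlaps MT-ATP6 over 22.2% of its exon length (chrM:8366-8572, plus strand, GRCh38), and reads in an overlap may be counted for neither gene.

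The isoforms that mark other tissues were near or at 0. COX4I1 was at 216 to 303 CPM across the libraries, while its alternative isoform COX4I2 had 3 counts in all. COX7A2 was at 47.8 to 90.5 CPM, whereas COX7A1, the heart and muscle form, had 22 counts. COX6A2, another heart and muscle form, and COX7B2 had 0 counts, COX8C, a testis form, had 3, and COX6B2, a testis form, had 12. Next to the limit of 20 counts, COX7A1 and NDUFA7 (25 counts) were the members just inside, and NDUFB2-AS1 (14 counts) was the row just outside. Of the 81 nuclear genes, 78 passed edgeR's filter on low counts and were tested, and COX7A1, NDUFA7 and ATP5ME (55 counts) were not.

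Low counts went with overlapping annotation. Of the 16 nuclear members under 1000 counts, 13 share over 10% of their exon length with another gene, against 18 of the 65 with 1000 counts or more. NDUFV2 and NDUFS7, both core subunits of complex I, had 1.12 and 2.27 CPM in WT and overlap another gene over 28.4% and 49.1% of their exon length. COX8A had 4.48 CPM in WT and an overlap of 34.5%. The library kit does not keep strand, so reads of overlapping genes on opposite strands cannot be told apart. How reads in an overlap were counted is not given, so levels of such members are uncertain. The rows that overlap NDUFV2 (AP005263.1) and COX8A (AP000721.1) had 0 counts themselves. The cause of the low counts was not tested.

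Summed levels give the first view of the groups. The 13 mitochondrially encoded genes summed to 11385, 9466 and 10177 CPM in WT, 9345, 8207 and 7963 in KO, 11872 and 13201 in WT LPS, 9769 and 9340 in KO LPS, and 13044 and 16043 in KO LPS BMS. All 3 KO libraries lay below all 3 WT libraries, both KO LPS libraries below both WT LPS libraries, and both libraries with the compound above both KO LPS libraries. The KO and WT sums came close, at 9345 in KO replicate 1 and 9466 in WT replicate 2. MT-CO1 was the largest part, with a mean of 4149 CPM in WT. Gene by gene, KO and WT did not overlap in 3 of the 13, and the share over all genes was not computed for that pair. The 81 nuclear genes, tested or not, summed to 4716 to 5071 CPM in WT, 5018 to 5121 in KO, 4766 to 4999 in WT LPS and 4888 to 4924 in KO LPS, which lie close together, and to 5982 and 5658 with the compound. The ratio of the mitochondrial to the nuclear sum was 2.11 ± 0.123 in WT (SD, n = 3), 1.68 ± 0.125 in KO (SD, n = 3), 2.57 ± 0.283 in WT LPS (SD, n = 2), 1.94 ± 0.0495 in KO LPS (SD, n = 2) and 2.51 ± 0.467 in KO LPS BMS (SD, n = 2). As a plain share of all counts, the nuclear members took 0.523% to 0.572% of each unstimulated library, 0.433% to 0.463% of each library with LPS alone and 0.500% and 0.521% with the compound. In the LPS comparisons, therefore, directions depend on the TMM scaling, and the values with library size only are given beside them.

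**Figure D1:**
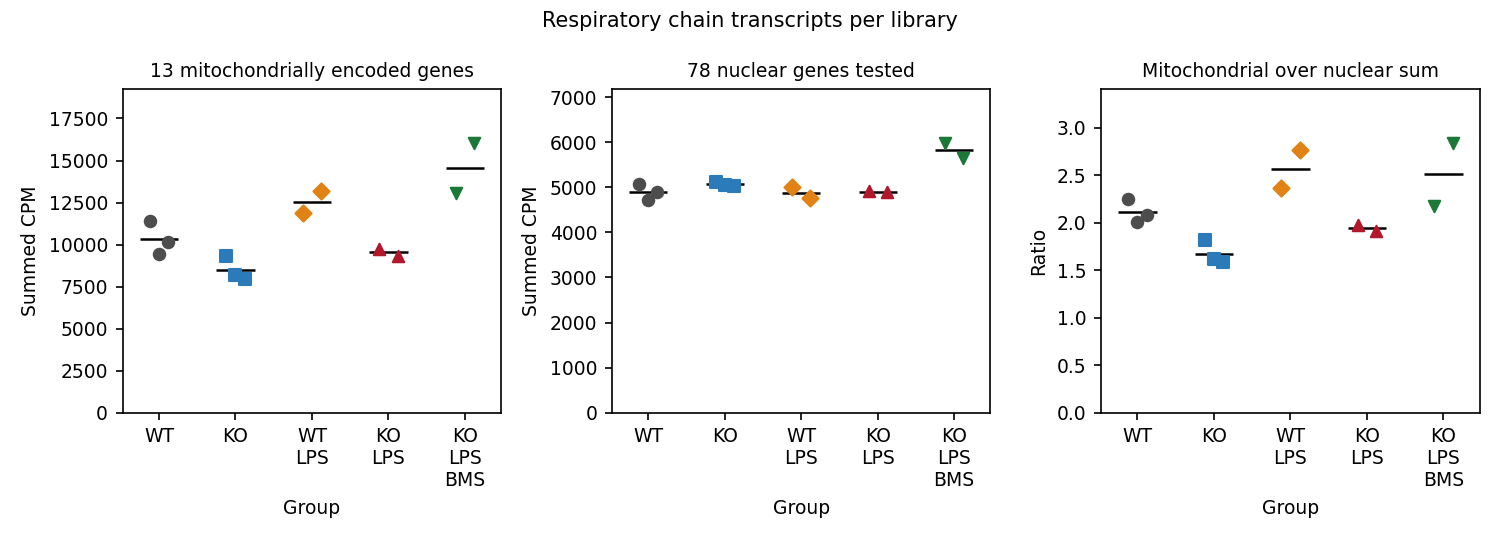
Summed level in CPM of the 13 mitochondrially encoded genes (left) and the 81 nuclear genes (middle), and the ratio of the sums (right), by group. The title of the middle panel names the 78 tested genes, but the sum holds all 81. Each point is 1 library and each line the group mean; the nuclear sums lie between 4716 and 5121 CPM in the groups without the compound, and at 5658 and 5982 CPM with it.

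The comparison of KO LPS BMS with KO LPS asked what the compound did on top of LPS in knockout cells. It raised members of every complex. Of the 78 nuclear genes, 43 rose and 1 fell, where called means an adjusted p under 0.05 (edgeR quasi-likelihood, Benjamini-Hochberg over 16022 genes); over all genes tested 22.3% rose and 25.5% fell. Of the 13 mitochondrially encoded genes, 12 rose. The median log2 fold change was 0.29 over the nuclear and 0.62 over the mitochondrially encoded members, against -0.04 over all genes. These counts were 47 higher, 3 lower and 12 higher after removal of the GC trend, and 29 higher, 4 lower and 12 higher with library size only.

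The mitochondrially encoded genes that rose belong to complexes I, III, IV and V. MT-CO1 was at 3705 and 3582 CPM in KO LPS and at 4795 and 6030.1 with the compound, a log2 fold change of 0.57 ± 0.14 (SE; adjusted p = 0.00916). MT-CYB, cytochrome b of complex III, went from 664 and 652 CPM to 966 and 1152 (0.69 ± 0.10). MT-ND6, the complex I subunit encoded on the other strand of the circle, went from 170.4 and 151 CPM to 243 and 291 (0.73 ± 0.14). In all 13 genes both libraries with the compound lay above both KO LPS libraries, as they did in 32.8% of all genes tested, and replicate 2 was the higher of the pair in 12 of them, MT-ATP8 being the exception. The 13 genes share these libraries and are transcribed as long polycistronic RNAs, so they are not 13 independent results. The 12 called genes spanned 0.49 (MT-ND3) to 0.73 (MT-ND6), and MT-ATP8 had 1.1 ± 0.56 and was not called. Without KO LPS replicate 2 the calls of MT-CO1 (adjusted p = 0.0567) and MT-ND3 (adjusted p = 0.0525) ended. Of the 3 ribosomal and transfer RNA rows of the mitochondrial genome that were tested, 2 rose and 1 was not called. Their log2 fold changes ran from 0.21 to 0.61, with the ribosomal RNA MT-RNR2 at 0.54 ± 0.12. Nuclear copies of mitochondrial sequence on chromosome 1, which may share reads with these genes, rose too, MTATP6P1 by 0.82 and MTND2P28 by 0.71 on the log2 scale.

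**Figure D2:**
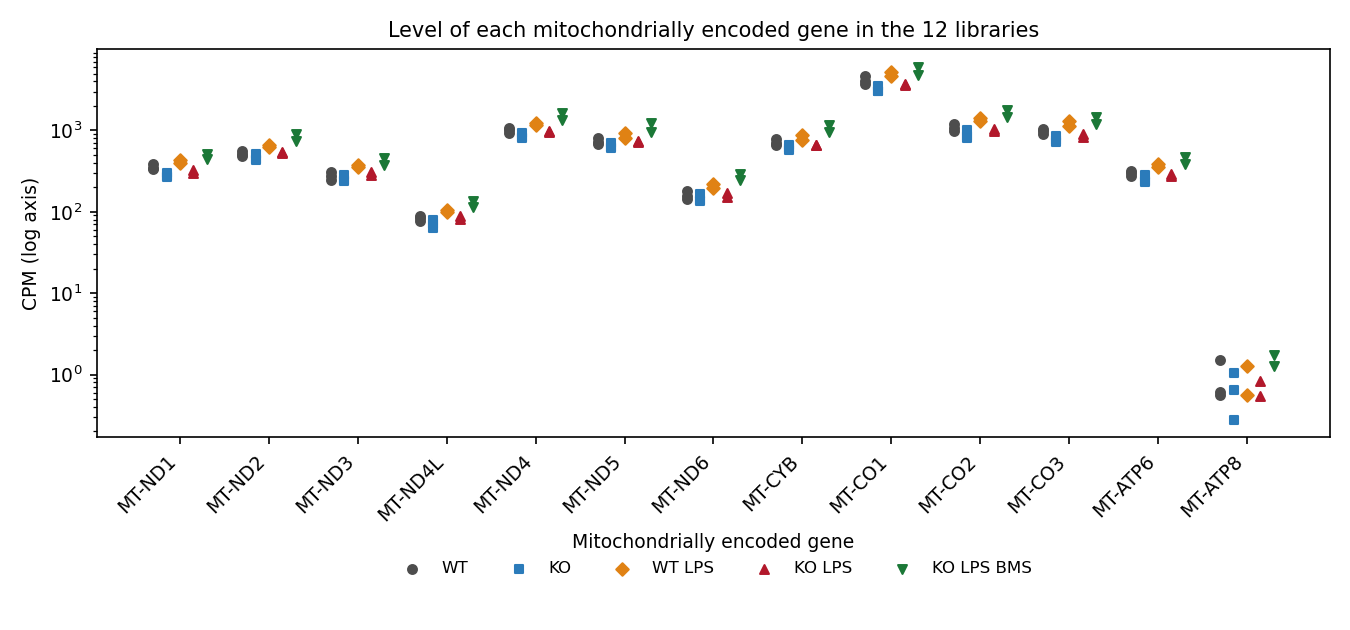
Level of each mitochondrially encoded gene in CPM (log axis) in the 12 libraries, by group; each point is 1 library. For every gene the 2 KO LPS BMS libraries lie above the 2 KO LPS libraries, and MT-ATP8, with 175 counts in all, lies far below the others.

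The nuclear calls came from all 5 complexes. In complex III 7 of 9 members rose (median log2 fold change 0.34), in complex IV 8 of 11 (0.29), in complex V 13 of 17 (0.35) and in complex II 3 of 4 (0.25). Of the 30 accessory subunits of complex I, 11 rose and 1 fell (0.19), and of its 7 nuclear core subunits 1 rose, NDUFV1, which carries the NADH-binding site (0.16). No test of the difference between complexes was made. All 17 complex V, 11 complex IV, 9 complex III and 4 complex II members tested had a positive value, called or not. In complex I 21 of 30 accessory and 4 of 7 nuclear core subunits did, and over all genes 7615 of 16022 did.

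**Figure D3:**
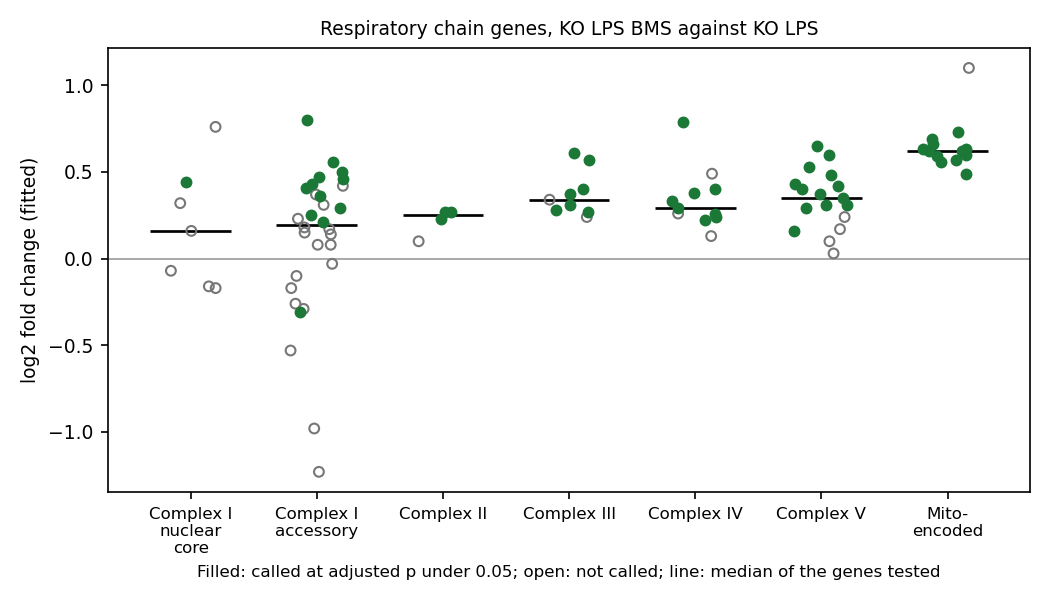
Fitted log2 fold change of each tested member in KO LPS BMS against KO LPS, by complex; filled points are called at an adjusted p under 0.05, and lines are medians. Every member grouped by symbol in complexes II to V lies above 0, and values below 0 are confined to members grouped in complex I.

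The 6 nuclear members with the greatest rise came from complexes I, III, IV and V. UQCR10, a small subunit of complex III, was at 51.3 and 52.1 CPM in KO LPS and at 79.7 and 74.4 with the compound, a log2 fold change of 0.57 ± 0.09 (adjusted p = 2.2e-05). ATP5MK, a membrane subunit of ATP synthase that holds its dimers together, was at 33.9 and 36.8 CPM and at 60.8 and 50.3 with the compound (0.65 ± 0.11). ATP5MC1, which encodes the proton-carrying c subunit, went from 19.1 and 18.5 CPM to 27.5 and 29.6 (0.60 ± 0.11). Groups that did not overlap were a condition for naming these members, so that trait adds nothing to the calls. ATP5MK shares 18.1% of its exon length with another gene. The other 3 had lower levels, and also overlap another gene: NDUFA2 of complex I rose from 5.99 and 6.70 CPM to 12.5 and 9.64 (0.80 ± 0.17), COX8A of complex IV from 4.06 and 3.48 to 7.0 and 6.11 (0.79 ± 0.22) and UQCR11 of complex III from 2.96 and 2.94 to 4.72 and 4.31 (0.61 ± 0.23). The call of UQCR11 ended without any 1 of the 4 libraries compared, with adjusted p from 0.0626 to 0.126.

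The member that fell was NDUFA8, a complex I accessory subunit, at 27.2 and 23.6 CPM in KO LPS and 18.9 and 21.9 with the compound (log2 fold change -0.31 ± 0.10, adjusted p = 0.0166). Its call ended without KO LPS BMS replicate 1 (adjusted p = 0.18) or KO LPS replicate 1 (adjusted p = 0.319). Among the common isoforms, COX4I1, at 249 and 246 CPM in KO LPS and 303 and 272 with the compound, rose by 0.22 ± 0.06, a call that ended without KO LPS BMS replicate 1 (adjusted p = 0.163). The calls of COX7A2 and COX7B ended without KO LPS BMS replicate 2 (adjusted p = 0.0898 and 0.234) or KO LPS replicate 2 (adjusted p = 0.136 and 0.131). Without KO LPS BMS replicate 1, 27 nuclear members were called, all higher.

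The genes that assemble the complexes or carry electrons between them had calls in both directions, as did all genes. Over all genes tested 22.3% rose and 25.5% fell with the compound (47.8% in either direction), and no list in this paragraph had a larger share called. Of 16 complex I assembly factors 1 rose and 4 fell: TIMMDC1, which helps build the membrane arm, had 0.68 ± 0.08, while NDUFAF1, an early assembly factor, had -0.80 ± 0.12. Of 20 complex IV assembly factors 4 rose and 4 fell, with the copper chaperone SCO1 at 0.57 ± 0.08 and the translation and assembly factor COA3 at -0.78 ± 0.14. Of 13 assembly factors of complexes II, III and V, 2 rose and 2 fell. In the list of electron carriers and coenzyme Q synthesis, 2 of 15 rose and 5 fell: CYCS, cytochrome c, had 0.43 ± 0.07, and COQ7 and COQ8B of coenzyme Q synthesis had -1.20 ± 0.18 and -1.06 ± 0.15. Whether these lists differ from the subunits was not tested.

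Of the 30 genes for transcription, RNA handling and maintenance of mitochondrial DNA, 9 rose and 1 fell. The counts of this paragraph stand against 22.3% of all genes tested that rose with the compound and 25.5% that fell. LRPPRC and PNPT1, which act on mitochondrial RNA stability and processing, had 0.63 ± 0.07 and 0.65 ± 0.09, and TFB1M, the mitochondrial rRNA methyltransferase, had -0.88 ± 0.19. TFAM, which packages and transcribes mitochondrial DNA, had 0.12 ± 0.10 (adjusted p = 0.362), and POLRMT, the mitochondrial RNA polymerase, 0.03 ± 0.27 (adjusted p = 0.947), and neither was called. Of 13 regulators of mitochondrial biogenesis 6 rose and 1 fell. The coactivators PPARGC1B and PPRC1 had 0.51 ± 0.08 and 0.54 ± 0.09, whereas the transcription factors NRF1 and GABPA had 0.10 ± 0.12 (adjusted p = 0.524) and -0.02 ± 0.10 (adjusted p = 0.858). Of 14 enzymes of the tricarboxylic acid cycle 7 rose and 2 fell, and of 77 mitochondrial ribosomal proteins 12 rose and 14 fell. The 86 genes named RPL or RPS, mostly cytosolic ribosomal proteins, moved in the same comparison: 67 rose, 3 fell and the median was 0.34. Cell type markers moved as well: of the 7 monocyte markers 2 rose (FCN1 and F13A1) and 5 fell, and of 14 microglial markers tested 9 rose and 4 fell. The part of these changes in the members' result was not tested.

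Promoter sequence was read for all nuclear members with a window, whether or not they rose. RefSeq windows (GRCh38.p14) matched 65 of the 81 nuclear genes, and the 250 bases before the start were searched on both strands. The motif of NRF1, a factor known for nuclear respiratory genes (GCGCA, any base, then GCGC), was in 14 of the 65 (21.5%), against 5.53% of all 27305 windows and 10.1% of the 11304 windows of genes tested. The ETS motif CCGGAAG, which GABP binds, was in 17 (26.2%), against 8.82% and 15.4%. The MEF2 motif was in 2 (3.08%), against 2.90% and 1.42%, and the NF-kB motif in 8 (12.3%), against 9.57% and 11.7%. Overlap of motifs was allowed. With the compound, 7 of the 13 tested members with the NRF1 motif rose, and 29 of the 50 without it. Such matches describe letters and are no evidence of binding. Below are 3 of the 6 members with the greatest rise, 1 with both motifs, 1 with the ETS motif only and 1 with neither, each as the 250 bases before the start in the direction of transcription, with NRF1 and ETS motifs in capitals. They are UQCR11 at chr19:1605463-1605712 (minus strand), with NRF1 motifs 29 and 10 bases and ETS motifs 117 and 97 bases before the start, COX8A at chr11:63974370-63974619 (plus strand), with an ETS motif 18 bases before the start, and UQCR10 at chr22:29767119-29767368 (plus strand).
UQCR11: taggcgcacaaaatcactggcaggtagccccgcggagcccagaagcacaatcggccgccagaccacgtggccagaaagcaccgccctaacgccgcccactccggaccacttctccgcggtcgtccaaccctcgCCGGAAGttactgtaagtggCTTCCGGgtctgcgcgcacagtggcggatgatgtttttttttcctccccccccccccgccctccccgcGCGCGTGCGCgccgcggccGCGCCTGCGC
COX8A: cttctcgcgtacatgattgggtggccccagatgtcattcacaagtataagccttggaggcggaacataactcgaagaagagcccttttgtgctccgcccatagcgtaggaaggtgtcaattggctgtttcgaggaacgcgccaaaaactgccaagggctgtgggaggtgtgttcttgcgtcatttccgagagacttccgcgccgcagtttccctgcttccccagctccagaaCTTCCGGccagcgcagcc
UQCR10: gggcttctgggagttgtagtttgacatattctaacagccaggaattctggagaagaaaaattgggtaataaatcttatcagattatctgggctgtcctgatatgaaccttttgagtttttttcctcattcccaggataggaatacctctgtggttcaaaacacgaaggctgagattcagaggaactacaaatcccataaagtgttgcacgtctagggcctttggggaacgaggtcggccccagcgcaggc

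LPS in WT cells (WT LPS against WT) split the nuclear members. Of 78, 18 rose and 19 fell, with a median log2 fold change of -0.01; of all genes tested 28.9% rose and 30.8% fell, with a median of -0.07, so 37 of 78 members were called, against 59.7% of all genes. The mitochondrially encoded genes had a median of 0.30, and 9 of 13 rose and none fell. With library size only, the median of all genes moved to -0.36, the nuclear split became 3 higher and 47 lower, and no mitochondrially encoded gene was called. With the GC trend removed, 13 nuclear members rose, 17 fell and 1 mitochondrially encoded gene rose.

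The nuclear members that rose were rich in A and T and those that fell rich in G and C. Transcripts of the 18 that rose had a median GC content of 44.4%, those of the 19 that fell 56.1%, and those of the 41 not called 49.4%. Of 20 members under 45% GC 10 rose and 1 fell, and of 17 members over 55% GC none rose and 10 fell. Across the 78 members, which share the libraries, Spearman's rho between log2 fold change and GC content was -0.64, against -0.33 across all genes with a GC value. For the compound the same rho was -0.01 and 0.01. The GC trend of the 2 WT LPS libraries given above moves with this result, and after its removal rho was -0.18 across the members.

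**Figure D4:**
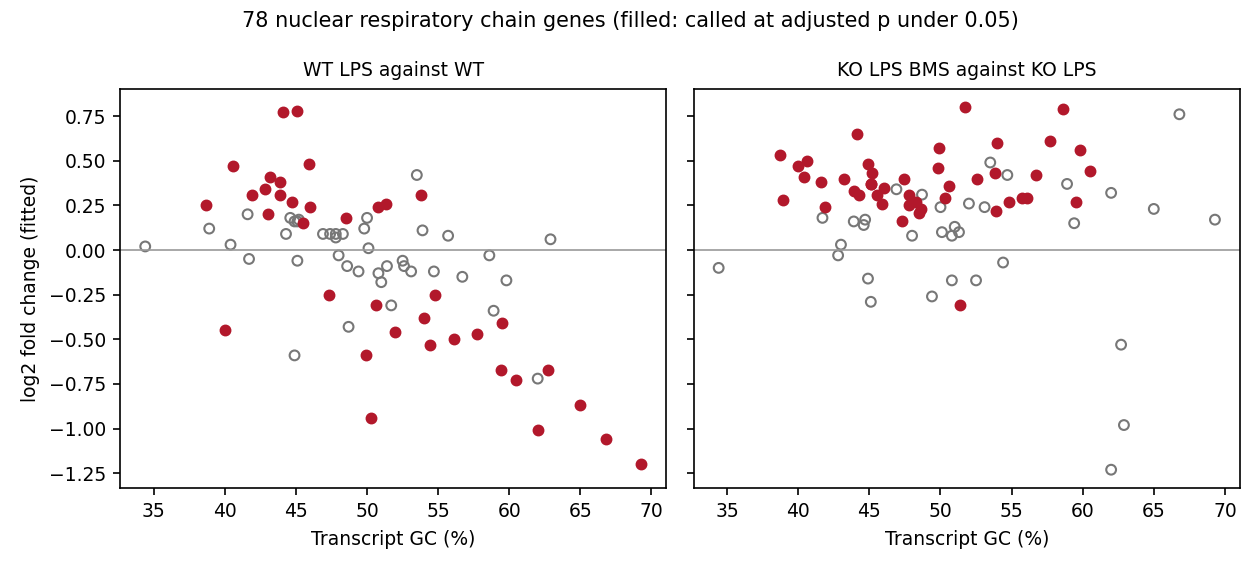
Fitted log2 fold change of the 78 tested nuclear genes against transcript GC content in percent, for WT LPS against WT (left) and KO LPS BMS against KO LPS (right); filled points are called at an adjusted p under 0.05. Values fall with GC content on the left (Spearman's rho -0.64) and show no such slope on the right (rho -0.01).

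Among the members that fell with LPS in WT, ATP5IF1 kept its size after removal of the GC trend. It encodes the inhibitor that stops ATP synthase from running backwards (chr1:28236109-28246906, plus strand). It was at 70.0, 65.1 and 72.3 CPM in WT and 40.8 and 31.3 in WT LPS, a log2 fold change of -0.94 ± 0.10 (adjusted p = 1.12e-07) and also -0.94 without the trend. NDUFV1 was at 106, 110 and 114 CPM in WT and 71.4 and 61.5 in WT LPS, a change of -0.73 ± 0.09 that came to -0.32 without the trend. NDUFS8 and NDUFS7, iron-sulfur core subunits of complex I, fell by 1.01 ± 0.15 and 1.06 ± 0.35 on the log2 scale, and NDUFB7, an accessory subunit, by 0.87 ± 0.18, which came to -0.54, -0.32 and -0.25 without the trend, NDUFS7 then no longer being called (adjusted p = 0.38). ATP5F1D, the delta subunit of complex V, had the greatest fall, -1.20 ± 0.39, from 25.2, 21.5 and 29.2 CPM to 12.1 and 9.87, and was not called without the trend (-0.46). Its call also ended without WT LPS replicate 1 or 2 or WT replicate 1 or 3 (adjusted p from 0.0554 to 0.159), and that of NDUFS7 without WT LPS replicate 1 (adjusted p = 0.154) or WT replicate 3 (adjusted p = 0.0587). In all, 4 of the 7 core subunits of complex I fell and 1 rose, against 30.8% and 28.9% of all genes tested. With the GC trend removed, 3 fell and 1 rose, and their median log2 fold change went from -0.59 to -0.32.

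Among the members that rose, ATP5MK was at 25.5, 20.7 and 23.0 CPM in WT and 41.1 and 37.9 in WT LPS, a log2 fold change of 0.77 ± 0.10 (adjusted p = 6.73e-07) and 0.62 without the GC trend. COX7A2 of complex IV rose by 0.48 ± 0.07, and COX7A2L, which joins complexes into supercomplexes, by 0.41 ± 0.08. NDUFS1, the largest core subunit of complex I, rose by 0.38 ± 0.07 and NDUFB3, an accessory subunit, by 0.47 ± 0.09. All 4 were still called without the trend, at 0.37, 0.24, 0.22 and 0.25. NDUFA9, a complex I accessory subunit at 3.61 CPM in WT, rose by 0.78 ± 0.18. Without WT LPS replicate 2, the library with the steepest GC trend, none of the mitochondrially encoded genes was called, and 3 were called without WT replicate 2 and 5 without WT replicate 3. With library size only, MT-ND1 and MT-ND4 came to -0.07 and -0.04.

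The start of the coding sequence shows how far the members differ in composition. The first 120 coding bases of 3 complex V genes are given (GENCODE 29 transcripts, GRCh38), with G and C in capitals: ATP5F1D (chr19:1241746-1244826, plus strand), the greatest fall, ATP5IF1, whose fall did not shrink without the trend, and ATP5MK (chr10:103389041-103396492, minus strand), the greatest rise in that complex. G and C make up 77.5%, 69.2% and 40% of these stretches, and 69.3%, 50.3% and 44.1% of the transcripts.
ATP5F1D: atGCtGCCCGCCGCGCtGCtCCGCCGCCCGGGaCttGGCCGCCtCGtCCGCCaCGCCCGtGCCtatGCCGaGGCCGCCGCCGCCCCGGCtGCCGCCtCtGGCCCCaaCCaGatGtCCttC
ATP5IF1: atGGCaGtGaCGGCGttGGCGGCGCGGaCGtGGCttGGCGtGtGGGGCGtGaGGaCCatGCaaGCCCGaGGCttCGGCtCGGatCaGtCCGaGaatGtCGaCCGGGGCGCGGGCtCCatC
ATP5MK: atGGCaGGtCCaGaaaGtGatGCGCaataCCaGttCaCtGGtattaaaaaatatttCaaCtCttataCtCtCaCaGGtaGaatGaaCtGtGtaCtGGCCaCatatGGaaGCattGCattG

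Around the chain, several carriers and regulators changed with LPS in WT, where 59.7% of all genes tested were called (28.9% higher and 30.8% lower). CYCS rose by 1.04 ± 0.06 and PDSS1, which makes the coenzyme Q side chain, by 1.7 ± 0.12, while the coenzyme Q kinase COQ8A had -1.24 ± 0.10, and in that list 3 of 15 rose and 8 fell. Of the assembly factors of complexes II, III and V, 7 of 13 fell and none rose, with ATPAF2 of complex V at -1.60 ± 0.12. Of the complex IV assembly factors 3 of 20 rose and 9 fell. Of the regulators 7 of 13 rose and 4 fell: HIF1A, the hypoxia factor, rose by 1.47 ± 0.05 and NFE2L2, the oxidative stress factor, by 2.00 ± 0.06. In the tricarboxylic acid cycle 2 of 14 rose and 4 fell, with citrate synthase (CS) at 0.54 ± 0.06 and isocitrate dehydrogenase 2 (IDH2) at -1.24 ± 0.08.

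LPS in KO cells (KO LPS against KO) was read in the same way: 5 of 78 nuclear members rose and 13 fell, against 24.5% and 20.3% of all genes, with a median of -0.06, and 1 of 13 mitochondrially encoded genes rose (MT-ND4L, 0.25 ± 0.09), with a median of 0.17. With library size only, 50 nuclear members fell and none rose, and the median of all genes was -0.26. Removal of the GC trend gave 6 higher and 19 lower, and no mitochondrially encoded gene was called. ATP5IF1 was at 80.8, 81.9 and 76.9 CPM in KO and 49.3 and 56.9 in KO LPS, and fell by 0.59 ± 0.09 on the log2 scale (adjusted p = 3.98e-05). UQCR10 fell by 0.38 ± 0.08, from 69.1, 68.0 and 65.4 CPM to 51.3 and 52.1. UQCR11, NDUFC2 and NDUFB10 fell by 0.67 ± 0.20, 0.59 ± 0.19 and 0.49 ± 0.17. NDUFS8 fell by 0.55 ± 0.14. Of the members that rose, ATP5MK had 0.34 ± 0.10, COX7A2 0.29 ± 0.07, COX7A2L 0.24 ± 0.08, ATP5F1B 0.14 ± 0.05 and the low NDUFV2 0.82 ± 0.27. With library size only, COX7A2L, ATP5F1B and MT-ND4L came to -0.01, -0.11 and -0.00. Of the 19 nuclear members that fell in WT 10 also fell in KO, where 13 fell in all, and of the 18 that rose 4 also rose, of 5 in all. The same overlap over all genes was not counted. Of all genes tested 59.7% were called in WT and 44.8% in KO, so the overlap is not read as a result about the members. The 2 genotypes share neither control nor LPS libraries.

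The KO LPS pair differed from each other more than other replicate pairs (chi-square per degree of freedom of 12.2 against 2.1 to 7.65), and single libraries decided several of these calls. Without KO LPS replicate 1 the calls of COX7A2 (adjusted p = 0.15), COX7A2L (0.05 on the log2 scale, adjusted p = 0.718), ATP5F1B (adjusted p = 0.0752), NDUFS8 (adjusted p = 0.0619), NDUFB10 (adjusted p = 0.2), NDUFV2 (adjusted p = 0.229) and MT-ND4L (adjusted p = 0.383) ended. Without KO LPS replicate 2 those of ATP5MK (adjusted p = 0.0689), ATP5F1B (adjusted p = 0.124) and NDUFC2 (-0.33, adjusted p = 0.268) ended. Leaving out 1 of the other libraries ended the calls of ATP5F1B, COX7A2L, MT-ND4L, NDUFB10, NDUFC2 and NDUFV2 in at least 1 case each (adjusted p from 0.0515 to 0.16). Those of ATP5IF1, UQCR10 and UQCR11 stood in every case.

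Knockout without the stimulus (KO against WT) changed few members. Of 78 nuclear genes 5 rose and 1 fell, against 10.2% and 11.4% of all genes, with a median of 0.05. Of the 13 mitochondrially encoded genes 2 fell, with a median of -0.22, and all 13 had a negative value, as had 8465 of the 16022 genes tested. These 13 values are not independent of each other. MT-ND1 was at 384, 335 and 347 CPM in WT and 297, 277 and 268 in KO, a log2 fold change of -0.34 ± 0.06 (adjusted p = 0.000641), and its call stood whichever library was left out. MT-CO3 had -0.32 ± 0.10 and lost its call without any 1 of 8 libraries (adjusted p from 0.0522 to 0.129). NDUFB3 rose by 0.32 ± 0.08, ATP5MK by 0.28 ± 0.09, and COX7A2, ATP5MC3 and NDUFS5 each by 0.22, while ATP5MC2 fell by 0.20 ± 0.06. Each of these 6 lost its call without WT replicate 2 or another library of the comparison (adjusted p from 0.0523 to 0.179). With the GC trend removed, 10 nuclear members rose and 4 fell, and 4 mitochondrially encoded genes fell. The RPL and RPS genes moved in the same comparison, 51 of 86 lower and 2 higher.

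Under LPS (KO LPS against WT LPS) 8 nuclear members were higher and 4 lower in KO, against 15.6% and 15% of all genes (30.6% in either direction), with a median of 0.01, and 7 of 13 mitochondrially encoded genes were lower, with a median of -0.37. With the GC trend removed, 5 nuclear members were higher and 4 lower, and 2 mitochondrially encoded genes were lower. ATP5IF1 was higher by 0.56 ± 0.11 (adjusted p = 0.000635), at 49.3 and 56.9 CPM against 40.8 and 31.3, with or without the GC trend. NDUFV2 was higher by 1.55 ± 0.34, at 2.45 and 1.91 CPM against 0.863 and 0.625. Its antisense row NDUFV2-AS1 had -0.73 ± 0.36 and was not called, but had 2.39 and 2.87 CPM in WT LPS against 0.594 to 1.39 in WT, a rise of 1.38 ± 0.33. A pseudogene of NDUFV2 on chromosome 19, NDUFV2P1, had 444 counts in all against 272 for NDUFV2, so reads may be shared between them, and the values of NDUFV2 are uncertain. NDUFA12, a complex I accessory subunit, had -0.38 ± 0.10 and was lower in KO. COX5B, NDUFS6, ATP5MC1 and NDUFV1 were higher by 0.41, 0.39, 0.37 and 0.35, and UQCRB, ATP5MC2 and ATP5F1C had -0.34, -0.23 and -0.17. These last 7 calls each ended without 1 library or more (adjusted p from 0.0604 to 0.297). With the GC trend removed, 6 of the 7 were no longer called: COX5B (adjusted p = 0.102), NDUFS6 (adjusted p = 0.0618), ATP5MC1 (adjusted p = 0.0506), NDUFV1 (0.02, adjusted p = 0.816), UQCRB (adjusted p = 0.0881) and ATP5F1C (-0.05, adjusted p = 0.484).

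The mitochondrially encoded genes lower under LPS in KO were MT-CO1, MT-CO2, MT-CO3, MT-CYB, MT-ND1, MT-ND4 and MT-ATP6. MT-CO3 was at 908 and 840.5 CPM in KO LPS and 1129 and 1289 in WT LPS, a log2 fold change of -0.47 ± 0.12, and MT-CO1 at 3705 and 3582 against 4678 and 5284, -0.45 ± 0.14. In 12 of the 13 genes both KO LPS libraries lay below both WT LPS libraries, as they did in 29% of all genes tested. Here too the 13 genes are not independent of each other. Only MT-ND1 (-0.40 ± 0.08) stayed called without each library in turn, and the other 6 lost their calls without KO LPS replicate 2 (adjusted p from 0.111 to 0.199) and without WT LPS replicate 2 (adjusted p from 0.128 to 0.277). With the GC trend removed, MT-ND1 and MT-CO3 were called, at -0.35 and -0.40. In this comparison 52 of the 86 RPL and RPS genes were lower, against 15% of all genes tested.

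The difference between the 2 LPS responses was tested by the interaction of genotype and LPS. It was called for 4 of 78 nuclear members, 2 higher and 2 lower, against 6.41% and 5.57% of all genes (12% in either direction), and for 0 of 13 mitochondrially encoded genes (edgeR; 0 at an unadjusted p under 0.05, and 1 called in edgeR with no filter on low counts). NDUFB3 was at 30.9, 24.0 and 26.6 CPM in WT, 35.6 and 39.4 in WT LPS, 35.1, 31.9 and 34.5 in KO and 34.8 and 33.6 in KO LPS: it rose with LPS in WT and had 0.02 ± 0.09 in KO, a difference of -0.45 ± 0.13. ATP5MK rose in both genotypes, with a difference of -0.43 ± 0.14 that came to -0.36 without the GC trend and was then not called (adjusted p = 0.0936). NDUFV1 fell in both (-0.73 and -0.27), with a difference of 0.45 ± 0.12 that came to 0.16 without the GC trend and was then not called either (adjusted p = 0.151). NDUFV2 had -0.59 ± 0.34 in WT (not called) and rose in KO, a difference of 1.41 ± 0.43 at levels of 0.625 to 2.45 CPM. NDUFB3 and NDUFV2 were still called without the trend, at -0.33 and 1.47. All 4 calls ended without KO LPS replicate 2 or WT LPS replicate 2, among other libraries (adjusted p from 0.0519 to 0.179).

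**Figure D5:**
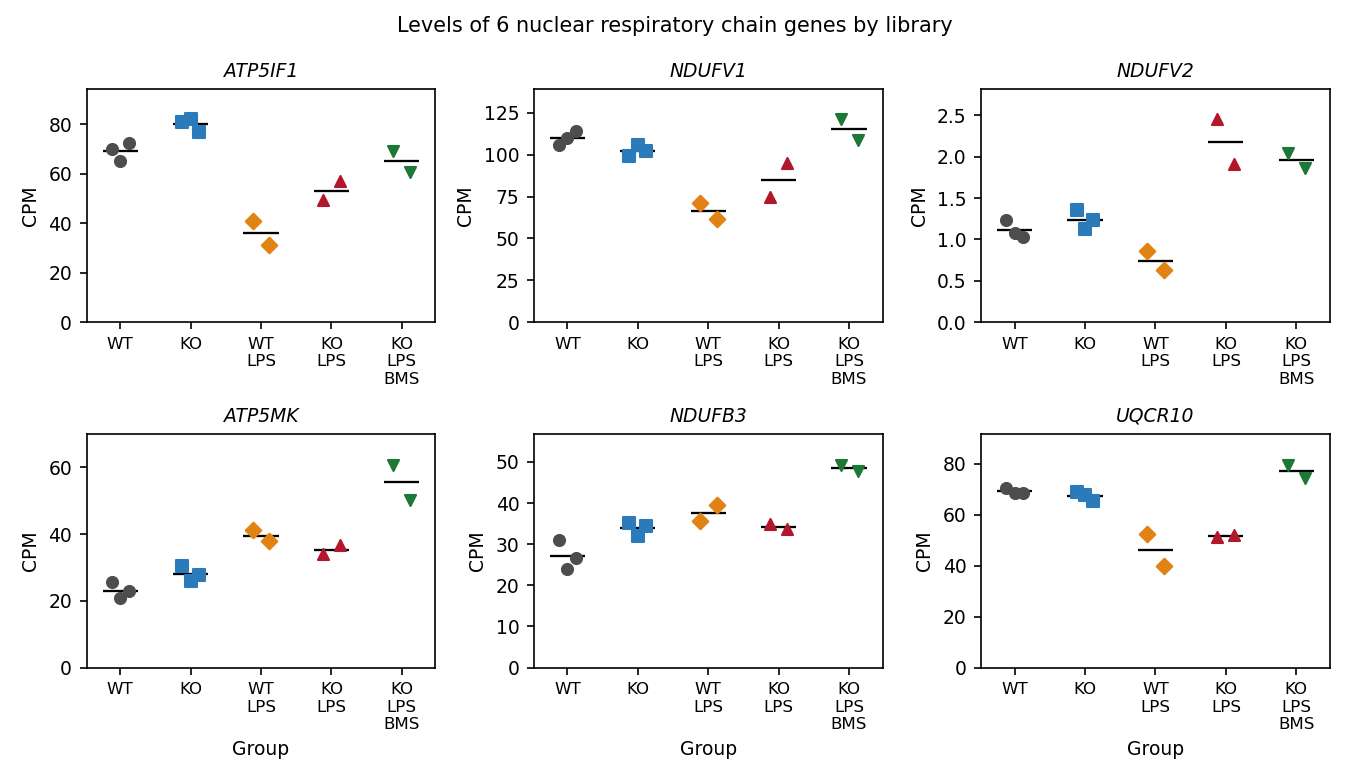
Level in CPM of ATP5IF1, NDUFV1, NDUFV2, ATP5MK, NDUFB3 and UQCR10 by group; each point is 1 library and each line the group mean. ATP5IF1 is lowest in the 2 WT LPS libraries (31.3 and 40.8 CPM), and ATP5MK, NDUFB3 and UQCR10 are highest in the 2 KO LPS BMS libraries.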

How the data were processed

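Total RNA of 12 cultures was sequenced, 1 library each; RNA came from TRIzol extraction and the library kit was NEBNext Ultra, which does not keep strand, per the labels' protocols. The authors deposited raw read counts per Ensembl gene, and CASAVA 1.7, Cufflinks and GRCh38 are named in the submitters' processing notes. For the aligner, counter and strand setting: not given in the sources used here. Groups and replicate numbers came from the sample titles, and p-values measure the spread between these cultures. edgeR 4.0.16 (R 4.3.3) kept 16022 genes (filterByExpr by group), scaled by TMM and fitted 1 mean for each group over the 12 libraries (robust quasi-likelihood fit; common biological coefficient of variation 0.064); p-values were 2-sided, adjusted by Benjamini-Hochberg over all genes, and SE is that of the log2 fold change. The script was tested on simulated data. Depth was 13888283 to 17639136 counts.

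GC content is the median over a gene's GENCODE 29 transcripts. Named genes were all mitochondrially encoded members, the isoform sets, and per comparison the 6 called nuclear members with the greatest rise and fall whose groups did not overlap (no such condition for the interaction); of each other list, the 2 called genes per direction with the lowest adjusted p. The regulators TFAM, POLRMT, NRF1, GABPA, PPARGC1B and PPRC1 and the non-coding and pseudogene rows were chosen after their values were seen. The members and lists were chosen with earlier results of these data known. Alternatives were DESeq2 1.42.0 (size factors, test), library size only, mitochondrially encoded rows left out of scaling, no filter, the replicate number as a block, only the groups compared, each library left out, and, chosen after seeing the data, removal of each library's GC trend.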

Additional observations from a re-analysis of the deposited data

Results flagged for a closer look

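The LPS responses of the 2 genotypes differed by the interaction test in 4 nuclear members (edgeR's quasi-likelihood test, adjusted over 16022 genes). The response in KO minus that in WT was -0.45 on the log2 scale for NDUFB3 (adjusted p = 0.0268), -0.43 for ATP5MK (adjusted p = 0.0493), 0.45 for NDUFV1 (adjusted p = 0.0232) and 1.41 for NDUFV2 (adjusted p = 0.0377). With the GC trend of each library removed, NDUFB3 (-0.33) and NDUFV2 (1.47) were still called, whereas ATP5MK (-0.36, adjusted p = 0.0936) and NDUFV1 (0.16, adjusted p = 0.151) were not. All 4 calls ended without KO LPS replicate 2 (adjusted p from 0.0519 to 0.158) and without WT LPS replicate 2 (adjusted p from 0.069 to 0.179), and each ended without other single libraries too.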

How the results depend on the processing

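With the compound, 12 of 13 mitochondrially encoded genes were called higher in the main analysis and 10 to 13 in the alternatives, none lower. Of the nuclear genes, 43 were called higher and 1 lower, and 27 to 47 higher and 0 to 4 lower in the alternatives, with 29 and 4 under library size only. The nuclear calls in either direction (44) numbered 27 to 46 with 1 library left out, the 27 without KO LPS BMS replicate 1. Counts called among mitochondrially encoded genes in WT LPS against WT (9) were 0 with library size only, 3 with the replicate block, 1 with the GC trend removed and 0 to 12 with 1 library left out. In KO LPS against KO (1) they were 0 with DESeq2 size factors, library size only, the DESeq2 test, the replicate block, the GC trend removed or only the groups compared, 3 with no filter, and 0 to 6 with 1 library left out; the nuclear count (18) was 50 with library size only. In KO against WT the nuclear count (6) was 14 with the GC trend removed, 15 with only the groups compared and 2 to 8 with 1 library left out, and the mitochondrial count (2) was 8 with no filter, 5 with the DESeq2 test, 1 with the block, 4 with the GC trend removed and 1 to 9 with 1 library left out. In KO LPS against WT LPS the nuclear count (12) was 4 with only the groups compared and 4 to 20 with 1 library left out, and the mitochondrial count (7) was 3 with library size only, 11 with no filter, 12 with the DESeq2 test, 2 with the block, 2 with the GC trend removed and 1 to 11 with 1 library left out. For the interaction, the nuclear count (4) was 7 with no filter and 0 to 8 with 1 library left out, and the mitochondrial count (0) was 1 with no filter. The cause of these differences was not tested. With library size only, log2 values changed sign in KO LPS against KO for ATP5F1B (-0.11), COX6B1 (-0.22), COX7A2L (-0.01) and MT-ND4L (-0.00), and in WT LPS against WT for ATP5MC3 (-0.20), COX4I1 (-0.18), COX6B1 (-0.21), MT-ND1 (-0.07), MT-ND4 (-0.04) and NDUFA4 (-0.26). NDUFA4 also changed sign with the GC trend removed (-0.20). Replicate numbers are shared across groups, but deviations from the group means of same-numbered WT and KO libraries correlated by 0.0653, 0.041 and 0.00666, so the numbers were not taken to pair the libraries. Groups of 2 libraries and low counts, as in MT-ATP8, NDUFV2 and UQCR11, limit the precision.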
